A study of Mus musculus with 8 samples.

Results

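Endothelial cells line the vessels of the brain, and 10 genes that mark them or serve their barrier were followed in the ageing mouse hippocampus. They were Cldn5, Ocln, Pecam1, Cdh5, Tek, Flt1, Kdr, Slc2a1, Abcb1a and Vwf. The genes were chosen by name, all probes of each were taken, and the 10 genes were read by 12 probes. These belong to 39429 non-control probes on each array and to 19742 named genes that were tested. The arrays held Cy3-labelled RNA of the whole hippocampus, dissected by hand. The labels call it polyA RNA, while the study's methods say that total RNA was labelled. All mice were wild type C57BL/6J animals that had received no treatment and had aged in the home cage. One group was 3 months old (3M) and the other 29 months old (29M), with 4 samples each. The old mice had been bought aged and were kept on until the end of the life span. The labels do not say whether each sample came from 1 animal, so the errors given measure the spread between these samples. In RNA of a whole tissue, fewer cells of a type and less RNA per cell cannot be told apart.

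Brain endothelial cells are joined by tight junctions, built from claudins and occludin, and by adherens junctions, built on VE-cadherin. This seal forces nutrients through dedicated carriers, while efflux pumps return many foreign compounds to the blood. The cells are steered by the growth factors of the VEGF and angiopoietin families, and they store von Willebrand factor, which tethers platelets to an injured vessel wall.

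Between 76.2% and 85.0% of the non-control spots were well above background on an array, no spot was saturated, and pairs of arrays correlated at r of 0.991 to 0.998 across probes. The lowest of these shares was that of 3M replicate 1, which was also the only array that the scanner software marked for evaluation. The next lowest were those of the arrays on its slide, 29M replicates 4 (78.9%) and 3 (80.6%). The arrays of the other slides had 81.7% to 85.0%. Each of the 3 slides held samples of both ages. Slide 1 held 3M replicate 1 with 29M replicates 3 and 4, and slide 2 held replicate 2 of each age. Slide 3 held 3M replicates 3 and 4 with 29M replicate 1. A difference within a slide thus rests on 1 or 2 arrays of each age. Values of the endothelial genes that rest on 3M replicate 1, and calls in the related lists that change without it, are given with and without it. Each array was taken as the sample to which its file is assigned. A deposited table of the series pairs 7 of its 8 columns with the array of another sample. In 4 of these cases that array was of the other age. The assignment of arrays to ages thus carries a doubt that was not examined further and is not settled here. Every 29M against 3M value below depends on that assignment. All 12 probes of the endothelial genes were well above background on all 8 arrays. The 8 neuronal markers examined, such as Snap25, were also well above background on every array. Values are normalized intensities on a generalized log2 scale, a scale on which probes of different genes cannot be set against each other. To be called, a gene needed an adjusted p under 0.1 and a log2 change of at least 0.5 in either direction, which is 1.414-fold.

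Of the 10 genes 1 was called, Vwf, which was higher in 29M. Of all genes tested 2.26% were called, 1.58% higher and 0.689% lower, and of all probes 2.06%, 1.25% higher and 0.809% lower. An unadjusted p under 0.05 was reached by 3 of the 10 genes, Cldn5, Flt1 and Vwf, beside 17.1% of all genes. The log2 change was above 0 for 9 of the 10 genes and below 0 for Kdr, while 52.9% of all genes tested had a change above 0. Without 3M replicate 1, Ocln (-0.19) and Cdh5 (-0.15) also lay below 0. The median log2 change of the 10 genes was 0.20, beside 0.01 over all genes. It was 0.10 without 3M replicate 1. The groups did not overlap for Flt1 and Vwf, 2 of the 10 genes, and 11.6% of all genes had groups that did not overlap.

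**Figure D1:**
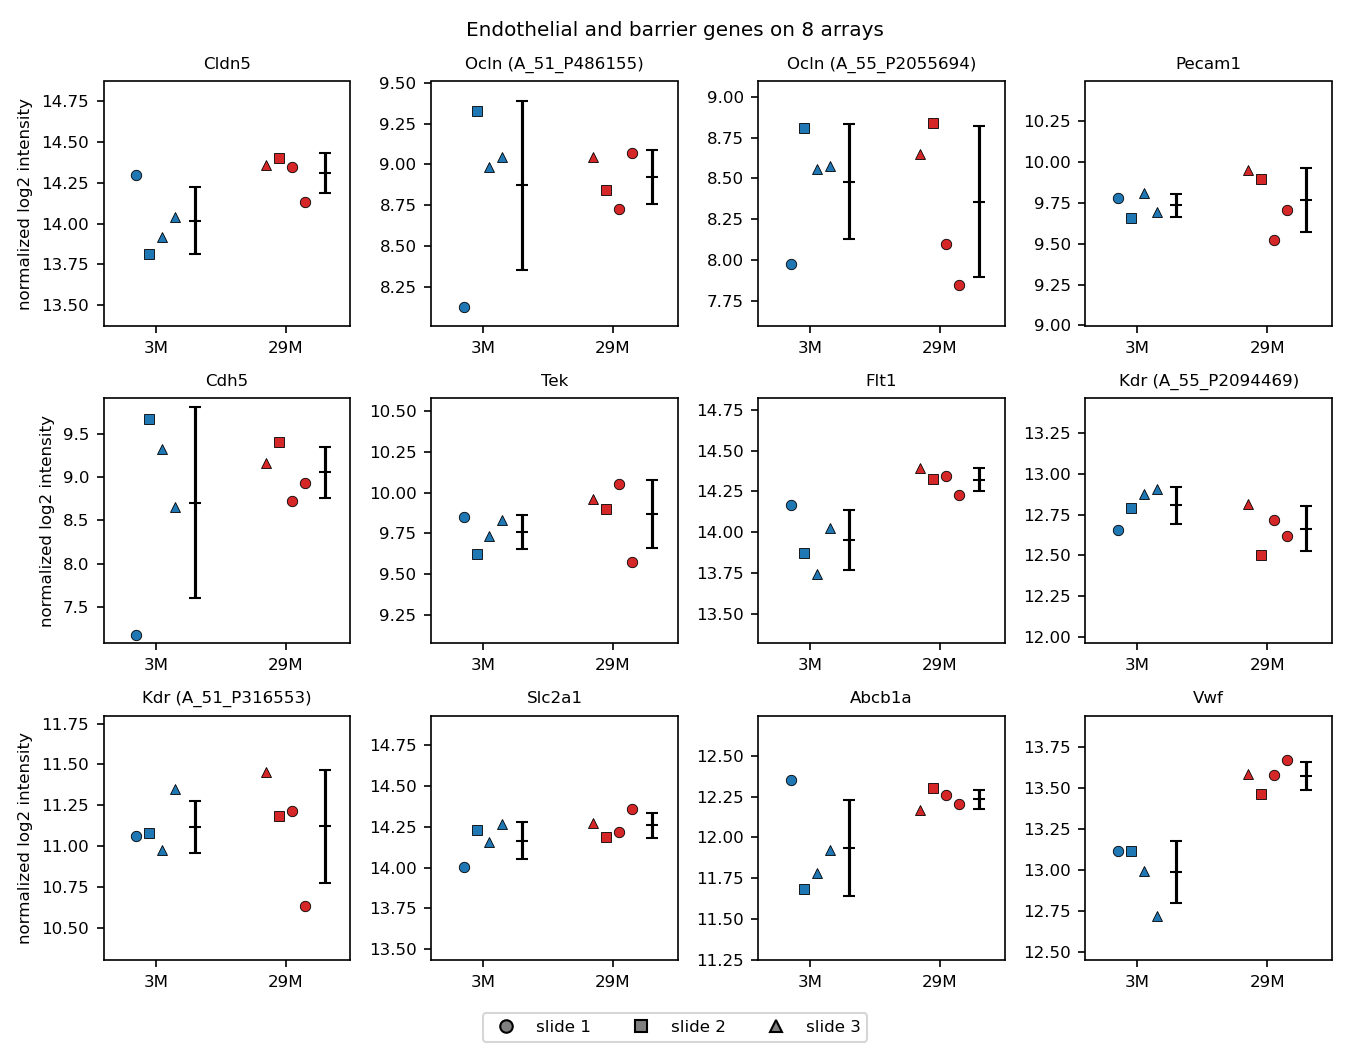
Normalized log2 intensity of each of the 12 probes on the 8 arrays, with 3M samples in blue and 29M samples in red, the marker shape giving the slide, and the bars giving mean and SD of 4 samples. The 29M points lie above every 3M point for Flt1 and Vwf, and 3M replicate 1 lies far below the other arrays for Cdh5.

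Vwf encodes von Willebrand factor, the large adhesive protein of endothelial storage granules. Its probe (A_51_P103397) read 13.12, 13.12, 12.99 and 12.72 in 3M replicates 1 to 4. In 29M replicates 1 to 4 it read 13.59, 13.46, 13.58 and 13.67. The lowest 29M sample thus lay above the highest 3M sample, and the 29M samples were the more tightly grouped. The mean rose from 12.99 ± 0.19 (SD, n = 4) to 13.58 ± 0.09 (SD, n = 4). This was a log2 change of 0.59 (SE 0.11, 95% confidence interval 0.35 to 0.83), or an intensity 50.5% higher (27.5% to 77.6%), with an adjusted p of 0.0320 in limma. Within the slides, which held 1 or 2 arrays of each age, the 29M mean exceeded the 3M mean by 0.51, 0.35 and 0.74 on the log2 scale. The direction held under each of the 17 other settings, with log2 changes of 0.48 to 0.64, and Vwf was called in 12 of them. The call was lost without 3M replicate 4, where the log2 change was 0.50 and fell just short of the threshold, and without 29M replicate 1, where the adjusted p was 0.107.

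The receptors are Flt1 and Kdr, which both bind VEGF, and Tek, which binds the angiopoietins. Flt1, the receptor VEGFR1, is known to bind VEGF tightly and to signal weakly, and its soluble form traps the ligand. Kdr, the receptor VEGFR2, carries most of the VEGF signal in endothelial cells. The Flt1 probe (A_51_P398723) read 14.17, 13.88, 13.75 and 14.03 in 3M replicates 1 to 4 and 14.39, 14.32, 14.35 and 14.23 in 29M replicates 1 to 4. Every 29M sample was above every 3M sample, although 3M replicate 1 came within a short distance of the lowest of them. The means were 13.95 ± 0.18 and 14.32 ± 0.07, a log2 change of 0.37 (SE 0.10, interval 0.14 to 0.60) or 1.29-fold. With an adjusted p of 0.124 Flt1 was not called, and it was called in none of the 17 other settings, in which its log2 change ranged from 0.20 to 0.44. Without 3M replicate 1 its adjusted p was 0.0438 and its log2 change, 0.44, was still under the threshold of 0.5.

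Kdr was measured by 2 probes. The probe with the higher mean (A_55_P2094469) read 12.65, 12.79, 12.87 and 12.91 in 3M and 12.82, 12.50, 12.72 and 12.62 in 29M. The groups overlapped, with 29M replicates 1 and 3 inside the 3M range and the other two below it. Its log2 change was -0.14 (SE 0.10, interval -0.36 to 0.08) with an adjusted p of 0.502. The other probe (A_51_P316553) was printed in 10 spots per array, whose SD within an array was 0.06 to 0.13. It read 11.06, 11.08, 10.98 and 11.35 in 3M and 11.45, 11.18, 11.21 and 10.63 in 29M. The highest and the lowest of the 8 values were both 29M samples, and the log2 change was 0.00 (SE 0.17, interval -0.37 to 0.38, adjusted p 0.995). Both intervals of Kdr stayed within a log2 change of 0.5 in either direction.

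The difference between the 2 VEGF receptors was also taken within each array. This pair was chosen after its values were seen, so the difference is given as a description without a test. With the first Kdr probe, Flt1 minus Kdr was 1.51, 1.08, 0.87 and 1.12 on the log2 scale in 3M and 1.58, 1.82, 1.63 and 1.61 in 29M. The means were 1.15 ± 0.27 and 1.66 ± 0.11, 0.51 apart, and the groups did not overlap. With the probe printed in 10 spots the means were 2.84 ± 0.19 and 3.20 ± 0.28, 0.36 apart, and the groups overlapped. The absolute size of such a difference carries the probes' own brightness, and only its shift between the ages can be read.

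Tek encodes the receptor TIE2, which holds the endothelium in a quiescent state when the product of Angpt1 is bound. Its probe (A_55_P2262136) read 9.85, 9.63, 9.73 and 9.83 in 3M and 9.96, 9.90, 10.05 and 9.57 in 29M. In 29M, 3 samples lay above the whole 3M range and replicate 4 lay below it. For Tek the log2 change was 0.11 (SE 0.11, interval -0.15 to 0.37, adjusted p 0.670).

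The promoters of the 2 VEGF receptors are shown because these receptors bind the same ligand and their difference within arrays was described above. They are the windows of RefSeq (assembly GRCm38.p6) from 250 bases before to 50 bases after the start of the gene, 5′ to 3′ on the strand of the gene, which is the minus strand for both. Capitals mark GGAAG or its reverse complement CTTCC, the core that many ETS factors bind. The Flt1 window lies at chr5:147725962-147726261 and the Kdr window at chr5:75978406-75978705.
Flt1: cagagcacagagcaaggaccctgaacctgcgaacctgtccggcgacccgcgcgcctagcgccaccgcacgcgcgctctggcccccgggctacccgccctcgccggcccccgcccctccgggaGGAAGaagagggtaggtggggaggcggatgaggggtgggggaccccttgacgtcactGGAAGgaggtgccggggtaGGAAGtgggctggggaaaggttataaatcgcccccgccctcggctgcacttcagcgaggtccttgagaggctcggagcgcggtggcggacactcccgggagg
Kdr: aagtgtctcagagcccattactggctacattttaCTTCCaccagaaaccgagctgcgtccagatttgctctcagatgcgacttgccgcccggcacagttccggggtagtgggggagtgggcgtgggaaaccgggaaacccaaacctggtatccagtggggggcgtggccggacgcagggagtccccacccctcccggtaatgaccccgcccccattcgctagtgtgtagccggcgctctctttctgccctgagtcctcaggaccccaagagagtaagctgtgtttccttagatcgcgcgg
The Flt1 window held 3 such cores and the Kdr window 1. On either strand, the letters GGGCGG of a GC box were found 3 times in the Flt1 window and 2 times in that of Kdr, and the letters TATAAA once in the Flt1 window only. Windows were found for 7 of the 10 genes, 8 windows in all because Ocln had 2. Of these 8 windows, 4 held GGAAG, 6 GGGCGG and 2 TATAAA. Of 32851 windows of this length, 71.4% held GGAAG, 35.7% GGGCGG and 13.6% TATAAA. No window was found for Vwf, Pecam1 and Cdh5.

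**Figure D2:**
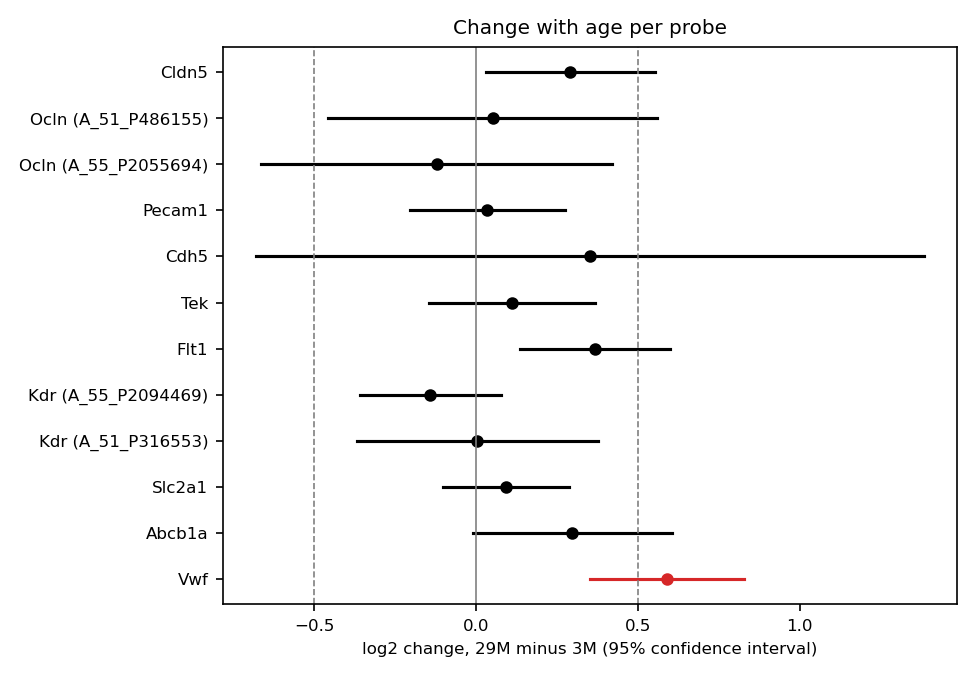
Log2 change of each probe, 29M minus 3M, with its 95% confidence interval from limma; the dashed lines mark a log2 change of 0.5 in either direction and red marks the called probe. The intervals of Cldn5, Flt1 and Vwf do not reach 0, and the interval of Cdh5, from -0.68 to 1.38, is the widest of the 12.

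Among the junction and adhesion genes, Cldn5, Ocln, Pecam1 and Cdh5, none was called. Cldn5 encodes claudin-5, the main claudin of brain endothelial tight junctions. Its probe (A_51_P189814) read 14.30, 13.81, 13.92 and 14.04 in 3M and 14.36, 14.40, 14.35 and 14.13 in 29M. All 29M samples were above the 3M samples 2 to 4, but 3M replicate 1 lay between 29M replicate 4 and the others. Cldn5 thus had a log2 change of 0.29 (SE 0.12, interval 0.03 to 0.55, adjusted p 0.247), or 1.22-fold. Within the slides it was -0.06, 0.59 and 0.37. Without 3M replicate 1 it was 0.39, with an adjusted p of 0.0737 and still under the threshold in size. Over the 17 other settings it ranged from 0.14 to 0.39 and Cldn5 was called in none.

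Ocln encodes occludin, a membrane protein of the tight junction. Of its 2 probes, the one with the higher mean (A_51_P486155) read 8.13, 9.33, 8.98 and 9.05 in 3M and 9.05, 8.84, 8.73 and 9.07 in 29M. The lowest and the highest value were both 3M samples, and the 29M samples lay between them. The log2 change was 0.05 (SE 0.23, interval -0.46 to 0.56, adjusted p 0.937). The second probe (A_55_P2055694) read 7.98, 8.81, 8.56 and 8.57 in 3M and 8.65, 8.84, 8.10 and 7.85 in 29M, and its log2 change was -0.12 (SE 0.24, interval -0.66 to 0.42, adjusted p 0.845). The 2 probes thus differed in sign, and without 3M replicate 1 the first of them had a log2 change of -0.19.

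Cdh5 encodes VE-cadherin, the cadherin of endothelial adherens junctions. Its probe (A_52_P248604) read 7.18, 9.67, 9.32 and 8.65 in 3M and 9.16, 9.41, 8.73 and 8.94 in 29M. The value of 3M replicate 1 was far below the other 7, among which the ages overlapped. The SD was 1.10 in 3M and 0.29 in 29M. The log2 change was 0.35 (SE 0.46, interval -0.68 to 1.38, adjusted p 0.748), and without 3M replicate 1 it was -0.15. The interval of Cdh5 reached past a log2 change of 0.5 in both directions, and each interval of Ocln in 1 direction, so changes of that size cannot be set aside with these arrays.

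Pecam1 encodes CD31, an adhesion molecule of endothelial cell contacts that is also found on platelets and leukocytes. Its probe (A_55_P2087087) read 9.78, 9.66, 9.81 and 9.69 in 3M and 9.95, 9.90, 9.52 and 9.71 in 29M. The 29M samples spread on both sides of the narrow 3M range. For Pecam1 the log2 change was 0.03 (SE 0.11, interval -0.21 to 0.27, adjusted p 0.907).

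The transport genes are Slc2a1, the glucose carrier GLUT1 of the barrier, and Abcb1a, a P-glycoprotein that pumps many drugs back into the blood. The Slc2a1 probe (A_51_P464738) read 14.01, 14.23, 14.16 and 14.27 in 3M and 14.27, 14.19, 14.22 and 14.36 in 29M. The groups overlapped, with 3M replicate 1 the lowest of the 8. This gave a log2 change of 0.09 (SE 0.09, interval -0.10 to 0.29, adjusted p 0.636), or 0.04 without 3M replicate 1. Pecam1, Tek, Kdr and Slc2a1 were the 4 genes whose interval lay within a log2 change of 0.5 in either direction.

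The Abcb1a probe (A_55_P1969477) read 12.35, 11.69, 11.78 and 11.92 in 3M and 12.17, 12.30, 12.26 and 12.20 in 29M. The 29M samples were tightly grouped and above 3 of the 3M samples, but 3M replicate 1 was the highest of all 8. The means were 11.94 ± 0.29 and 12.23 ± 0.06, a log2 change of 0.30 (SE 0.14, interval -0.01 to 0.60, adjusted p 0.311) or 1.23-fold. Within the slides the log2 change was -0.12, 0.62 and 0.31. Without 3M replicate 1 it was 0.44 with an adjusted p of 0.0360, a size still under the threshold. Abcb1a has a close relative, Abcb1b, and the probes may share signal, which was not examined, so the value of Abcb1a is uncertain. The log2 change of the Abcb1b probe was 0.28 (SE 0.13, adjusted p 0.307).

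**Figure D3:**
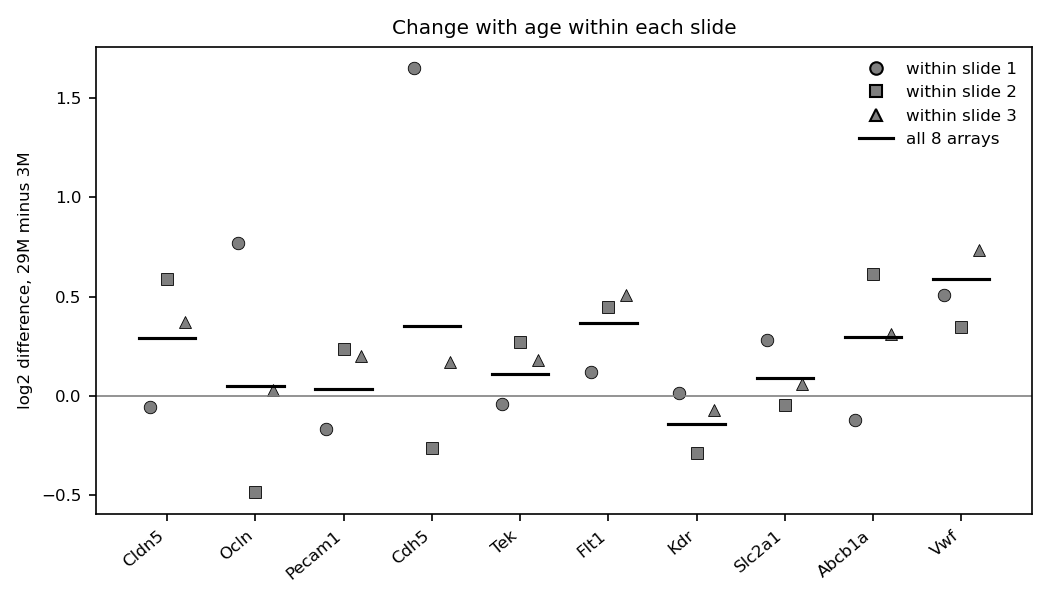
Log2 change of each of the 10 genes within each of the 3 slides, as the 29M mean minus the 3M mean of the arrays on that slide. Each mean is of 1 or 2 arrays, and slide 2 held 1 array of each age. Flt1 and Vwf lie above 0 on all 3 slides, and the other 8 genes change sign between slides.

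The 29M mean was higher on all 3 slides for Flt1 and Vwf, and the sign turned between slides for the other 8 genes. Slide 1 held 3M replicate 1 as its single 3M sample and gave the values furthest from the other slides for Cdh5, 1.65 beside -0.26 and 0.17. The mean deviation of the 10 genes from their own means was -0.24 in 3M replicate 1 and ran from -0.24 to -0.02 over the 3M samples. It ran from 0.05 to 0.18 over the 29M samples, so the groups did not overlap in this summary. The value of 3M replicate 1 drew largely on Cdh5 (7.18, mean of the 8 arrays 8.88) and Ocln (8.13, mean 8.90). The separation was not particular to these genes. In the list of 17 barrier transport genes described below, the same summary ran from -0.10 to -0.03 in 3M and from 0.01 to 0.10 in 29M. Over all 112 related genes described below the groups overlapped.

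Around these 10 genes, 112 further genes of the vessel wall and its signals were read from 8 lists. Of these, 3 were called higher, among them Cav1 and Edn1, and 1 lower (Apcdd1), beside 1.58% and 0.689% of all genes. The log2 change was above 0 for 68 and below 0 for 44 of them, and their median was 0.07. The calls of Cav1, Edn1 and Apcdd1 are less firm than their directions, which were the same under all 17 other settings.

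Among 12 genes of endothelial activation and haemostasis, the list that relates most closely to Vwf, 2 were called higher and 11 had a log2 change above 0, with a median of 0.12. Edn1, the vasoconstrictor peptide endothelin-1, had means of 8.53 ± 0.24 in 3M and 9.36 ± 0.24 in 29M and rose by 0.83 on the log2 scale (SE 0.15, adjusted p 0.0322). It was called in 15 of the 17 other settings. Its samples of the 2 ages did not overlap. Icam1, a leukocyte adhesion receptor, had a log2 change of 0.38 (adjusted p 0.175). F8, the coagulation factor carried by von Willebrand factor in plasma, gave a log2 change of 0.10 on its main probe, while its other, dimmer probe was called lower at -0.59 (adjusted p 0.0954).

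Of 17 genes of barrier transport and transcytosis, 1 was called higher, 10 had a log2 change above 0 and the median was 0.07. Cav1, the caveolin that coats endothelial caveolae, had means of 6.82 ± 0.06 in 3M and 7.33 ± 0.04 in 29M and rose by 0.50 on the log2 scale (SE 0.07, adjusted p 0.0142). It was 0.53, 0.47 and 0.48 within the slides, and Cav1, which sits at the size threshold, was called in 10 of the 17 other settings. Without 3M replicate 1 it gave 0.49 and was not called. Plvap, a protein of the diaphragms of caveolae that mature barrier endothelium mostly lacks, had a log2 change of 0.34 (SE 0.08, adjusted p 0.0768), under the threshold in size. Insr and Abcc4, the insulin receptor and an efflux pump, gave 0.34 and 0.36 with adjusted p-values of 0.148 and 0.238.

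Of 12 genes of barrier Wnt signalling, which induces and maintains the barrier, 1 was called lower and 7 had a log2 change above 0. Apcdd1, a Wnt inhibitor and target, had means of 10.09 ± 0.16 in 3M and 9.49 ± 0.26 in 29M and fell by 0.60 on the log2 scale (SE 0.14, adjusted p 0.0733), and was called in 9 of the 17 other settings. Axin2, a common Wnt target, gave -0.28 (adjusted p 0.259) and Sox17, an endothelial transcription factor, 0.44 (adjusted p 0.125). Without 3M replicate 1 Sox17 gave 0.52 (adjusted p 0.0512) and was called higher.

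The 15 VEGF, angiopoietin and Notch partners were the one list of the 8 in which most changes lay below 0, with 12 below and 3 above and a median of -0.14. None was called. Vegfa, the main ligand of Kdr and Flt1, gave -0.08, and Pgf, a ligand of Flt1 but not of Kdr, -0.26 (adjusted p 0.164). The Tek ligands Angpt1 and Angpt2 gave 0.33 and 0.34 (adjusted p 0.181 and 0.111). Of the 15 genes, 2 with a rise and 5 with a fall had an unadjusted p under 0.05.

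**Figure D4:**
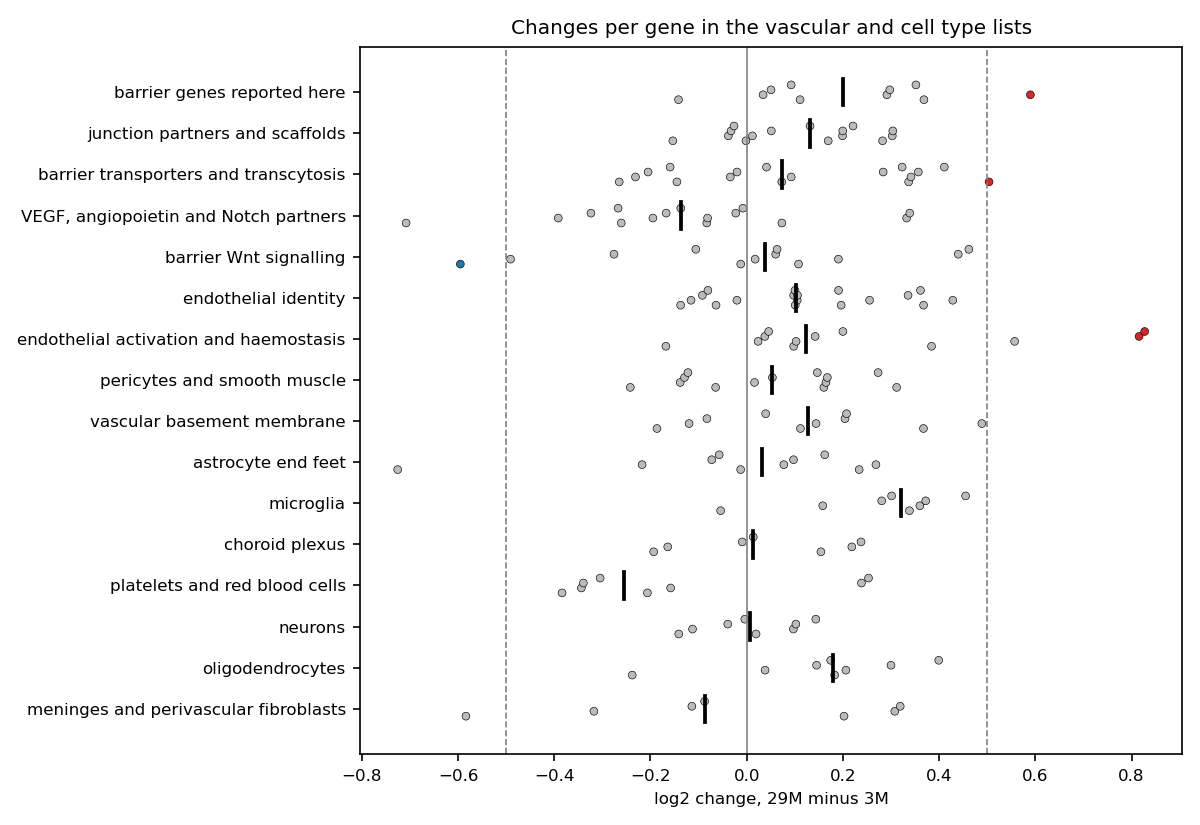
Log2 change of the 10 endothelial genes and of every gene of the 8 lists of the vessel wall and of the 7 lists of other cell types, 29M minus 3M, each point a gene and each bar the median of the list, with red for genes called higher, blue for genes called lower and dashed lines at a log2 change of 0.5 in either direction. The medians of the vessel lists lie between -0.14 and 0.13, and the microglia median is 0.32.

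No gene was called among 15 junction partners (median 0.13), 18 genes of endothelial identity (median 0.10), 13 of pericytes and smooth muscle (median 0.05) and 10 of the vascular basement membrane (median 0.13). The smallest adjusted p of these lists was that of Lamb2, a laminin chain of the basement membrane, at 0.0257 with a log2 change of 0.49, just under the threshold in size. Without 3M replicate 1 Lamb2 gave 0.52 (adjusted p 0.0194) and was called higher, while the median of the basement membrane list was -0.012. The junctional adhesion molecules Jam3 and Jam2 gave 0.30 and 0.20 (adjusted p 0.240 and 0.255). The transcription factor Sox18 gave 0.43 (adjusted p 0.184), and Clec14a, an endothelial lectin, 0.37 (adjusted p 0.132). Notch3, the Notch receptor of mural cells, gave 0.31 (adjusted p 0.220).

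Markers of other cell types were read beside the endothelial genes, since Pecam1 and Vwf are also made by cells of the platelet lineage. None of the 8 platelet and red cell markers was called, 2 of them had a log2 change above 0 and 6 below, the median was -0.26, and the mean deviation of the list ranged from -0.15 to 0.25 in 3M and from -0.49 to 0.11 in 29M. Ppbp and Pf4, which head the list, were the 2 with a change above 0, at 0.24 and 0.25. The other platelet genes Gp1bb, Gp9 and Itga2b gave -0.38, -0.21 and -0.16. The 8 microglial markers, of which none was called, had a median log2 change of 0.32, and Aif1, a defining marker, gave 0.34 (adjusted p 0.563). Aif1 read 13.39 in 3M replicate 1 beside 11.99 to 12.31 in the other 3M samples, and without that array it gave 0.65 (adjusted p 0.0302) and was called higher, with a list median of 0.38. Their mean deviation ran from -0.21 to -0.01 in 3M and from 0.08 to 0.20 in 29M, and the groups did not overlap. The choroid plexus list spread widely in 3M, from -0.76 to 0.40, beside -0.24 to 0.17 in 29M. The medians of the neuronal, astrocyte end foot, oligodendrocyte and meningeal lists were 0.01, 0.03, 0.18 and -0.09, with no gene called on its main probe. The lowest change of the end foot list was that of Dag1, at -0.73. Without 3M replicate 1 Dag1 gave -0.91 (adjusted p 0.0438) and was called lower, and it was called in 2 of the 17 other settings. The part of these cell types in the values of Vwf and the other endothelial genes was not tested.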

How the data were processed

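For each of the 8 arrays the authors deposited the scanner's spot intensities on a linear scale, made per the file headers with Agilent Feature Extraction 10.7.3.1 and not normalized between arrays. The headers were followed where the study's methods name another software version or array design. A deposited table covering all samples holds intensities too. Its 8 columns matched the arrays' mean local background (tolerance 0.001), in 7 cases that of another sample and in 4 that of a sample of the other age, and had medians of 26.7 to 34.8. Scale, centring and direction of expression are therefore unknown for it, and it was not used. Whether its column names or the assignment of files to samples is at fault is not known, and the latter was followed.

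Control spots were removed, as were 127 to 190 outlier spots on each array. Variance stabilising normalization, which ends on a generalized log2 scale and understates the change of dim probes, was fitted to the median spot intensities in R 4.3.3 (own implementation, least trimmed squares with quantile 0.9). Spots of a probe were averaged. limma 3.58.1 fitted a term for age to each probe with at least 3 arrays per group (39408 probes), with eBayes and Benjamini-Hochberg adjustment over all of them. On simulated data 91% of 200 changed probes among 39098 were recovered, and 5.70% of calls were wrong. These shares hold for the changes planted there and do not measure how often changes like those of the endothelial genes would be called. Probes were matched by accession to RefSeq (GRCm38.p6), which named 66.1% of them, and a gene was read on its probe with the highest mean. The array design used mm9, so the files' coordinates were left out.

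The titles gave group and replicate number. Same-numbered samples did not deviate together (r of -0.24, 0.21, -0.23 and 0.07). The fit followed the simple linear model named in the study's methods and had no block. All 10 genes are named, with the called genes of the related lists, up to 3 others per list with an unadjusted p under 0.05, and up to 2 defining genes for each other cell type. Some genes that this rule selects are not reported here. F8, Vegfa, Abcb1b, Dag1, Gp1bb, Gp9 and Itga2b were named outside this rule, after their values were seen. The genes and lists were chosen with earlier results of these data known. Alternatives were log2 processed signals minus the 75th percentile, normexp (offset 50) with quantile normalization, the model on processed signals, outlier spots kept, bright probes only, slide or replicate number as a block, mean over probes, an adjusted p under 0.05, and each array left out. The precision is limited by the number of arrays.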

Additional observations from a re-analysis of the deposited data

Results flagged for a closer look

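In 7 of 93 groups of 4 samples examined, 1 sample stood apart from the other 3, as judged by its gap to the nearest of them as a share of the range of the group. Chance gives about 1 in 20, or 4.65 of 93. None of the 24 groups of the 12 endothelial probes was among them. Values are normalized log2 intensities. Cav1 read 6.91 in 3M replicate 2 and 6.78 to 6.80 in the other 3M samples. Plvap read 12.89 in 3M replicate 1 beside 12.74 to 12.76. Insr read 11.54 in 29M replicate 2 beside 11.24 to 11.28. Abcc4 read 10.88 in 3M replicate 3 beside 11.25 to 11.33. Apcdd1 read 10.33 in 3M replicate 4 beside 9.99 to 10.04. Sox18, an endothelial transcription factor, read 11.41 in 3M replicate 4 beside 11.63 to 11.65. Ttr, the transthyretin of choroid plexus, read 18.07 in 3M replicate 3 beside 18.27 to 18.28.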

How the results depend on the processing

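The count of 1 endothelial gene called higher (Vwf) became 0 with log2 processed signals minus the 75th percentile (log2 change 0.48, adjusted p 0.105), when processed signals entered the variance stabilising model (0.49, adjusted p 0.0711) and with the replicate number as a block (0.59, adjusted p 0.134). Leaving out 1 array gave 0 to 1 called genes, with 0 without 3M replicate 4 or 29M replicate 1. No endothelial gene was called lower in any setting. The median log2 change of the 10 genes was 0.12 with the 75th percentile, 0.13 with processed signals and 0.10 to 0.26 with 1 array left out, lowest without 3M replicate 1. Pecam1 changed sign to -0.0031 with normexp, and with 1 array left out it ranged from -0.028 to 0.12, below 0 without 29M replicate 1 (-0.028) or 29M replicate 2 (-0.0090). Ocln changed sign to -0.036 as the mean of its probes. With 1 array left out Ocln ranged from -0.19 to 0.20 and Cdh5 from -0.15 to 0.68, both below 0 without 3M replicate 1 alone and highest without 3M replicate 2. The other 7 genes kept their direction under all 17 settings. The cause of these shifts was not tested.

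In the 112 related genes the 1 call lower became 0 with the replicate block, with slide fitted as a fixed term and at an adjusted p under 0.05, and the 3 calls higher became 1 with the replicate block. With 1 array left out these counts were 0 to 1 lower and 1 to 4 higher. Calls higher numbered 1 without 3M replicate 2, 3M replicate 4 or 29M replicate 2, and the call lower was lost without any of 3M replicates 2, 3 and 4 and 29M replicates 1, 2 and 4. Over the whole array 491 probes were called higher and 319 lower, 308 and 179 at an adjusted p under 0.05, and 266 and 145 with the replicate block. With 1 array left out they were 268 to 844 higher and 131 to 620 lower, most without 3M replicate 1 and fewest higher without 3M replicate 2 or 29M replicate 1. The replicate numbers are not known to pair the samples, and the block changed no other call among the 10 genes.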
